A study of Homo sapiens with 12 samples.

Results

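The 10 genes described here encode enzymes that build purine and pyrimidine nucleotides from small precursors: CAD, DHODH, UMPS and CTPS1 on the pyrimidine route, and PPAT, GART, PFAS, PAICS, ATIC and IMPDH2 on the purine route. They were chosen by name, and all 10 were found among the 26481 genes kept from the count table. RNA came from barcoded HEL cells, an established human acute myeloid leukemia (AML) line with erythroid and megakaryocytic features. The groups were cells that received no drug (NT, n = 2, grown with DMSO, where the design text of the series speaks of 3), and cultures that regrew after 1.8 µM doxorubicin (Doxo, n = 3), after doxorubicin with 6 µM cytarabine (Doxo+Cyta, n = 3), or after both of these with 0.1 µM decitabine (Doxo+Cyta+DAC, n = 4). Doxorubicin is an anthracycline that damages DNA, cytarabine is a deoxycytidine analogue that blocks DNA synthesis, and decitabine is a deoxycytidine analogue that inhibits DNA methyltransferases. Drugs were present for 72 to 74 h, dead cells were then removed, and the survivors were grown for about 30 days until they were as many as at the start, so the RNA was taken long after the drugs had gone. All cultures were a single cell line, the replicates were cultures of that line, and regrown cultures descend from the cells that survived.

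The pyrimidine ring is made first and then joined to a ribose phosphate, and its early steps are carried out by the CAD protein, by DHODH in the inner mitochondrial membrane and by UMPS. The purine ring is assembled step by step on the ribose phosphate itself, from the step of PPAT to IMP, the product of ATIC, and IMP is then turned into guanine or adenine nucleotides. Cells that divide draw on these routes for RNA, DNA and sugar or lipid carriers, while salvage enzymes return free bases and nucleosides to the same pools.

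Total counts lay between 12763582 and 19106235 per library, and the counts of the 10 genes lay between 102 and 13166, far over the limit of 3 counts below which a gene cannot be told from 0. Levels are given as CPM, counts brought to a common library size after scaling by the TMM method. HEL markers were present in every library (ITGA2B between 857 and 1710 CPM, GATA1 between 172 and 421 CPM), whereas defining markers of T cells (CD3E at most 0.158 CPM), B cells (MS4A1 at 0 throughout) and epithelium (EPCAM at most 0.103 CPM) were at or near 0. Of the other markers read, CD2 (T cells and some leukemias) reached 55.7 CPM, CD79A (B cells) 6.0 CPM and the 3 monocyte genes together 7.47 CPM. The 3 stroma genes summed to 34.9 to 51.8 CPM in NT, Doxo and Doxo+Cyta and to 6.6 to 9.66 CPM in Doxo+Cyta+DAC, nearly all of it PDGFRB, with COL1A1 at most 1.27 CPM. The summed level of the 10 HEL markers ranged from 8070 to 9320 CPM in NT, from 9280 to 10000 CPM in Doxo, from 9760 to 10700 CPM in Doxo+Cyta and from 6290 to 8500 CPM in Doxo+Cyta+DAC. The part of these shifts in the results was not tested. Doxo replicate 4 and Doxo+Cyta replicate 20 stood apart from the others of their groups. The root-mean-square log2 difference over all tested genes was 0.53 and 0.52 between Doxo 4 and the other Doxo libraries against 0.30 between those, and 0.58 and 0.57 between Doxo+Cyta 20 and its companions against 0.36 between those. The NT libraries differed by 0.29 and the Doxo+Cyta+DAC libraries by 0.41 to 0.51. Counts of the 10 genes called, and their fold changes in Doxo+Cyta+DAC, that rest on Doxo 4 or Doxo+Cyta 20 are therefore also given without them. The same was done for SLC19A1. Fold changes of the other genes named are given with all libraries only and may rest on these libraries.

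The start regions of the genes are shown because most of these genes moved in the same direction. RefSeq promoter entries on GRCh38.p14, each holding 250 bases before to 50 bases after a gene's RefSeq start, were found for 9 of the 10 genes, IMPDH2 being the exception. The entry of PAICS lies at another start (chr4, base 56410507) than the one in the count table (base 56435749), so it does not cover the stretch before the counted gene, and it held none of the motifs searched. The E-box CACGTG, the core motif bound by MYC, MAX and USF proteins, was searched on both strands and lay in 3 of the 9 entries (DHODH, PPAT and ATIC) and in 7.26% of all 35116 entries. The GC box GGGCGG, bound by SP proteins, lay in 6 of 9 (CAD, DHODH, CTPS1, PPAT, PFAS and ATIC) and in 45.0% of all entries. The CCAAT box lay in 3 of 9 against 34.6%, the cyclic AMP element TGACGTCA in 1 of 9 (UMPS) against 1.85%, and the E2F motif TTTCGCGC in 0 of 9 against 0.515%. The lines that follow give the 250 bases before the start of CAD (chr2:27217119-27217368, plus strand), DHODH (chr16:72008494-72008743, plus strand) and PFAS (chr17:8249039-8249288, plus strand), whose RefSeq starts lay at or close to the starts in the count table, then the whole stretch of 112 bases between the divergent PPAT and PAICS genes (chr4:56435637-56435748, minus strand). Next come windows of 30 bases around the E-boxes of PPAT (chr4:56435780-56435809, minus strand) and ATIC (chr2:215312001-215312030 and chr2:215312076-215312105, plus strand). Capitals mark E-boxes and GC boxes on either strand, and 2 GC boxes of DHODH overlap.
CAD: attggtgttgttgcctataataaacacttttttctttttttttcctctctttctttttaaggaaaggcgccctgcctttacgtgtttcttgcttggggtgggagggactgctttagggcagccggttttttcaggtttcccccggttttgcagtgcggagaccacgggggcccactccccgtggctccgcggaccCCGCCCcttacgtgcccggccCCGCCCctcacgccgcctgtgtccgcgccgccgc
DHODH: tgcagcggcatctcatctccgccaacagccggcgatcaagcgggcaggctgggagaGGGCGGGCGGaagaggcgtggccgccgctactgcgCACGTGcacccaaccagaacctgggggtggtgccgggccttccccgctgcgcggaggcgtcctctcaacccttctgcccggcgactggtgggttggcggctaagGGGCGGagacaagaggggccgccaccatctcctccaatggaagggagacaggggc
PFAS: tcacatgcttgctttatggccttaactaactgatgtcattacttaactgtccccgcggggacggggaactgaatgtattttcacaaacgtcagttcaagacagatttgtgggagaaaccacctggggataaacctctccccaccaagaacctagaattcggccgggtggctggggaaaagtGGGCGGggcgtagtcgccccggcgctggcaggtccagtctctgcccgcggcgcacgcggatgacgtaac
PPAT-PAICS: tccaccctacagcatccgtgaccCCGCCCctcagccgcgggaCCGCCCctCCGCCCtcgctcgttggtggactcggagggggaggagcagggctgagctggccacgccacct
PPAT E-box: aacggagatttcCACGTGcagcaaatacag
ATIC first E-box: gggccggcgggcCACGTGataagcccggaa
ATIC second E-box: ctcctacctgcgCACGTGgtgccgccgctg
The E-box of PPAT lies within the first exon of PAICS on the other strand. The E-box of DHODH began 159 bases before its RefSeq start, that of PPAT 182 bases before, and those of ATIC 46 bases before and at base 30 after it. In the count table ATIC starts earlier (base 215311956 against 215312059 in RefSeq), so both of its E-boxes lie within the counted gene. The CTPS1 entry lies wholly after the start of CTPS1 in the count table (base 40979299 against 40979696). UMPS starts earlier there too (base 124730366 against 124730452). A match of letters is a description and does not show that a factor binds there. For the 9 genes 1 entry each on a primary chromosome was read, while the 35116 entries were not limited in this way or to tested genes. The shares thus come from unlike sets, and a difference between them was not tested.

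In Doxo+Cyta+DAC, 9 of the 10 genes were higher than in Doxo+Cyta and 1, IMPDH2, was lower (edgeR's quasi-likelihood test, Benjamini-Hochberg adjusted p under 0.05). Over all 14164 tested genes 29.8% were called higher and 30.5% lower. The libraries of the groups did not overlap for any of the 10 (9 higher, against 29.0% of all tested genes, and 1 lower, against 28.2%). The same counts held against Doxo, with 9 higher (29.1% of tested genes) and 1 lower (30.4%), and again without overlap (9 higher against 29.7%, 1 lower against 30.2%). Against NT, 7 were called higher (24.9%) and 0 lower (23.7%), with 8 lying above the NT libraries without overlap (34.2%) and 1 below them (32.9%). For the 0 lower, 0 were lower at an unadjusted p under 0.05 and 0 by DESeq2. At stricter limits (adjusted p under 0.01, more than 2-fold) the counts were 6 against Doxo+Cyta (23.3% of tested genes), 7 against Doxo (21.6%) and 4 against NT (16.2%). Without Doxo 4 and Doxo+Cyta 20, 9 were higher and 1 lower against Doxo+Cyta and against Doxo, and 8 were higher and 1 lower against NT. Over all genes tested in that fit, 33.3% were higher and 33.5% lower against Doxo+Cyta, 33.9% and 34.1% against Doxo, and 30.1% and 30.6% against NT.

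The sizes differed between the genes of 1 route. Against Doxo+Cyta the log2 fold changes ran from -0.62 for IMPDH2 to 2.65 for PFAS, with a median of 1.26 beside 0.0003 over all tested genes. The median was 1.37 against Doxo (all genes -0.0055) and 0.83 against NT (all genes 0.0244). These 3 comparisons share the Doxo+Cyta+DAC libraries, so they are not independent of each other. Together the 10 genes held 0.267 to 0.281% of the counts in the Doxo+Cyta+DAC libraries, 0.197% in both NT libraries, 0.151 to 0.175% in Doxo and 0.172 to 0.176% in Doxo+Cyta, so the Doxo+Cyta+DAC libraries lay above the libraries of the other groups. Without Doxo 4 the log2 fold changes against Doxo were 2.23 for CAD, 1.5 for DHODH, 1.68 for UMPS, 1.54 for GART, 0.66 for PAICS, 1.58 for ATIC and -0.47 for IMPDH2, and those of CTPS1, PPAT and PFAS are given with these genes. Without Doxo+Cyta 20 the log2 fold changes against Doxo+Cyta were 1.75 for CAD, 1.77 for UMPS, 0.35 for PPAT, 1.31 for GART, 2.85 for PFAS, 0.66 for PAICS, 1.30 for ATIC and -0.59 for IMPDH2. Each of the values listed here kept its direction and its call, while PPAT lost its call against Doxo without Doxo 4. In bulk RNA a higher share of cells that use a gene and more RNA per cell cannot be told apart, and CPM give shares of the RNA, not amounts per cell.

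**Figure D1:**
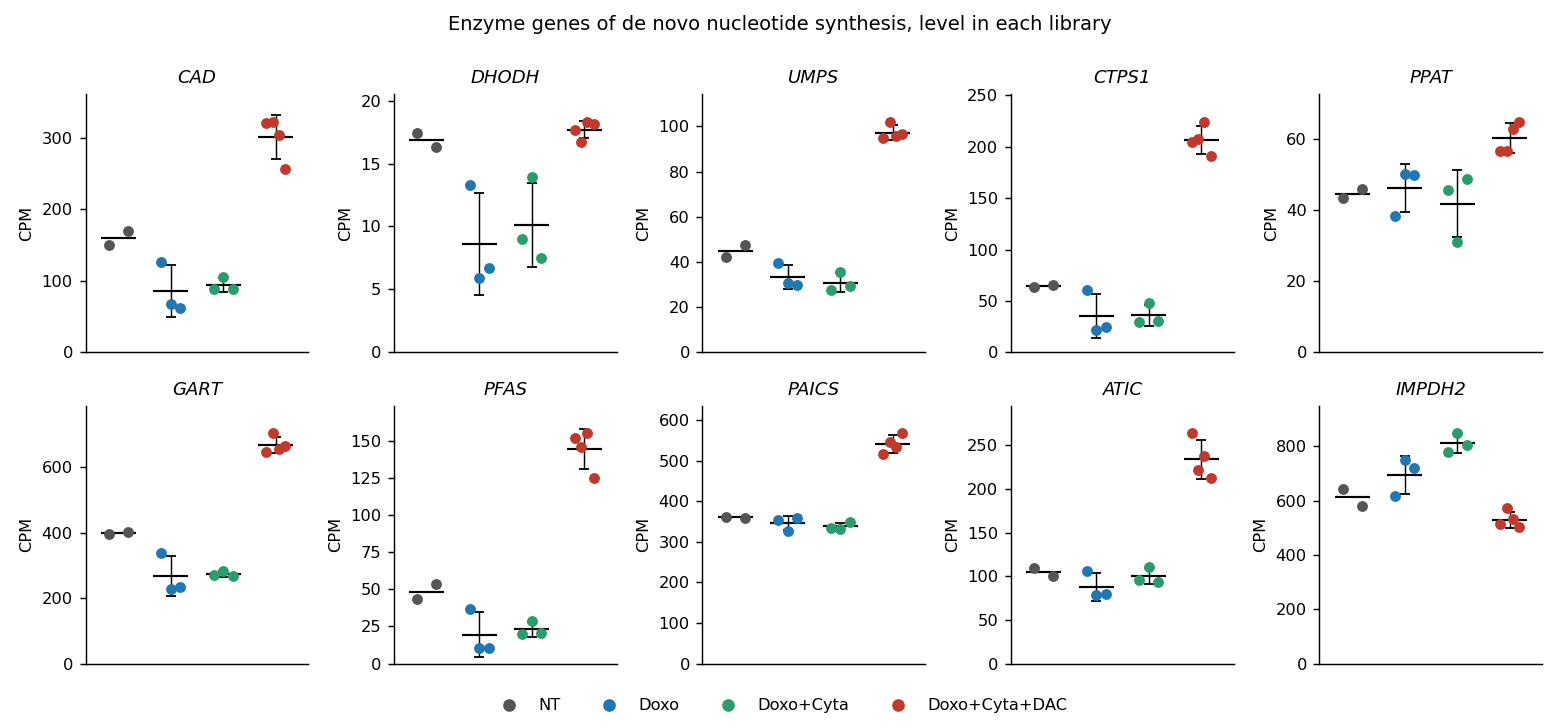
Level of each of the 10 genes in CPM (vertical axes, each from 0) in the 12 libraries, with points for libraries, horizontal lines for group means and bars for the SD where a group has 3 or more libraries. For 9 genes the 4 Doxo+Cyta+DAC points lie above all Doxo and Doxo+Cyta points, and for IMPDH2 they lie below them.

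CAD, on chr2:27217390-27243792 of GRCh38, encodes the large protein that makes carbamoyl phosphate, joins it to aspartate and closes the dihydroorotate ring. Its level was 150 and 169 CPM in NT, 127, 67.6 and 61.5 CPM in Doxo replicates 4, 5 and 6, 89.3, 106 and 88.5 CPM in Doxo+Cyta replicates 19, 20 and 22, and 321, 322, 304 and 256 CPM in Doxo+Cyta+DAC replicates 30 to 33. All Doxo+Cyta+DAC libraries were higher than all NT libraries, and all NT libraries were higher than all Doxo and Doxo+Cyta libraries. The fold was 3.18 against Doxo+Cyta (log2 1.67, SE 0.21, adjusted p = 1.22e-05), 3.52 against Doxo (log2 1.82, SE 0.21, adjusted p = 7.58e-06) and 1.89 against NT (log2 0.92, SE 0.23, adjusted p = 0.00512). The call against NT was lost without NT replicate 1 (log2 0.83, adjusted p = 0.0638).

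DHODH (chr16:72008744-72025417) oxidizes dihydroorotate to orotate and passes the electrons to ubiquinone. Its level was 17.4 and 16.3 CPM in NT, 13.3, 5.94 and 6.69 CPM in Doxo, 8.97, 13.9 and 7.52 CPM in Doxo+Cyta, and 17.7, 16.7, 18.3 and 18.1 CPM in Doxo+Cyta+DAC. The Doxo+Cyta+DAC libraries overlapped with NT and lay above the other groups, in which Doxo 4 and Doxo+Cyta 20 were the highest. DHODH was 1.75-fold higher in Doxo+Cyta+DAC than in Doxo+Cyta (log2 0.81, SE 0.25, adjusted p = 0.013) and 2.06-fold higher than in Doxo (log2 1.04, SE 0.26, adjusted p = 0.00317). Against NT the log2 fold change was 0.07 (SE 0.28, adjusted p = 0.843). Without Doxo+Cyta replicate 19 or 22 the call against Doxo+Cyta was lost (log2 0.72 and 0.62, adjusted p = 0.0576 and 0.0726), and without replicate 20 the log2 fold change was 1.10.

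UMPS (chr3:124730366-124749272) carries the last steps to UMP. Levels were 42.3 and 47.6 CPM in NT, 39.7, 30.9 and 30.0 CPM in Doxo, 27.5, 35.7 and 29.3 CPM in Doxo+Cyta, and 95.1, 102, 95.6 and 96.6 CPM in Doxo+Cyta+DAC. The 4 Doxo+Cyta+DAC values lay close together (coefficient of variation 3.15%) and far above all others. UMPS was 3.16-fold higher than in Doxo+Cyta (SE of the log2 0.13, adjusted p = 2.64e-07), 2.90-fold higher than in Doxo (adjusted p = 6.66e-07) and 2.16-fold higher than in NT (adjusted p = 4.56e-05).

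CTPS1 (chr1:40979299-41012565) turns UTP into CTP, the last step to the cytosine nucleotides. It stood at 63.6 and 65.3 CPM in NT, at 60.2, 21.8 and 25.1 CPM in Doxo, at 29.1, 48.2 and 30.5 CPM in Doxo+Cyta, and at 205, 207, 224 and 191 CPM in Doxo+Cyta+DAC. Doxo 4 was close to NT while Doxo 5 and 6 were at less than 26 CPM. The fold was 5.76 against Doxo+Cyta (log2 2.52, SE 0.30, adjusted p = 7.47e-06), 5.81 against Doxo (log2 2.54, SE 0.30, adjusted p = 8.83e-06) and 3.21 against NT (log2 1.68, SE 0.33, adjusted p = 0.00098). Without Doxo 4 the log2 fold change against Doxo was 3.15, and without Doxo+Cyta 20 that against Doxo+Cyta was 2.79.

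CTPS2, on the X chromosome, encodes the other CTP synthase and moved the other way. It was 18.7 and 19.3 CPM in NT, 17.4, 18.8 and 20.3 CPM in Doxo, 16.2, 15.9 and 18.2 CPM in Doxo+Cyta, and 12.3, 11.4, 12 and 14.6 CPM in Doxo+Cyta+DAC, where all 4 libraries were below all others. CTPS2 was lower in Doxo+Cyta+DAC than in Doxo+Cyta (log2 -0.42, SE 0.13, adjusted p = 0.0102), Doxo (log2 -0.58, adjusted p = 0.00115) and NT (log2 -0.60, adjusted p = 0.00302). Within a library, CTPS1 per kilobase was 4.84 and 4.82 times CTPS2 in NT, 4.92, 1.65 and 1.76 times in Doxo, 2.56, 4.30 and 2.38 times in Doxo+Cyta, and 23.6, 25.8, 26.5 and 18.6 times in Doxo+Cyta+DAC.

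**Figure D2:**
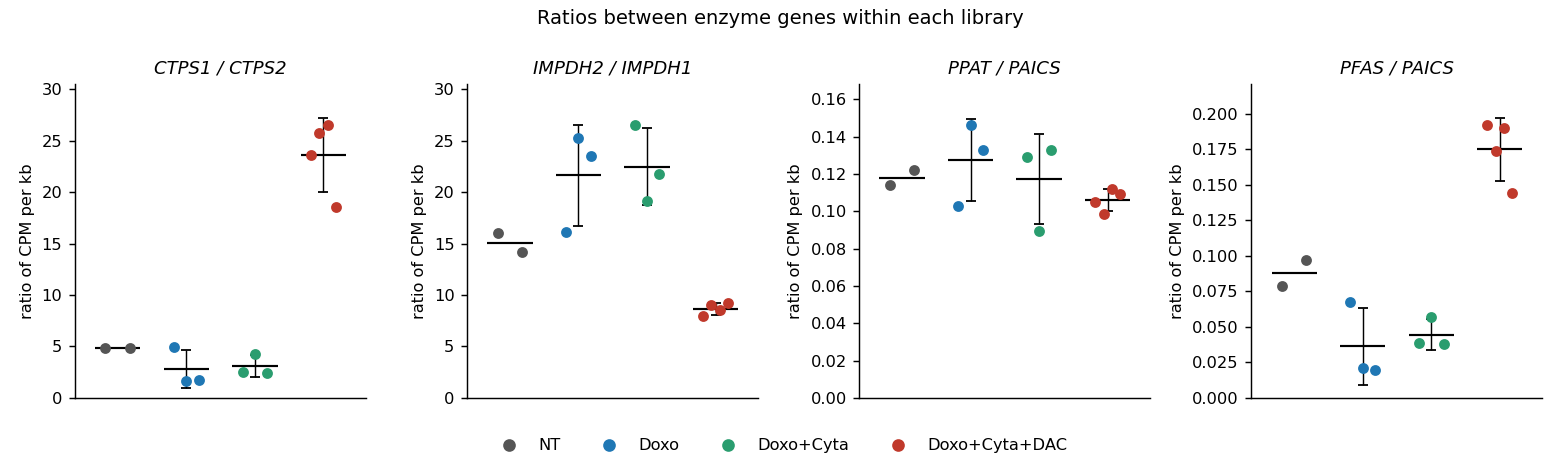
Ratio of CPM per kilobase of exon between pairs of genes in each library (points), with group means (lines) and SD (bars, groups of 3 or more), on axes from 0. The CTPS1 to CTPS2 and PFAS to PAICS ratios are highest and the IMPDH2 to IMPDH1 ratio lowest in Doxo+Cyta+DAC, while the PPAT to PAICS ratios lie between 0.0895 and 0.146 in all groups.

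PPAT (chr4:56393363-56435636, minus strand) catalyses the committed step of the purine route, the transfer of an amide nitrogen to phosphoribosyl pyrophosphate (PRPP). Its level was 43.5 and 46.0 CPM in NT, 38.4, 50.3 and 50.1 CPM in Doxo, 45.6, 31.2 and 48.9 CPM in Doxo+Cyta, and 56.8, 56.6, 62.8 and 64.9 CPM in Doxo+Cyta+DAC. The Doxo+Cyta+DAC libraries were all above the rest, but Doxo 4 and Doxo+Cyta 20 were the lowest of their groups, the reverse of what the pyrimidine genes showed. PPAT was 1.44-fold higher than in Doxo+Cyta (log2 0.52, SE 0.15, adjusted p = 0.0079) and 1.30-fold higher than in Doxo (log2 0.38, SE 0.15, adjusted p = 0.0406), and the latter call was lost in 6 of the alternative fits, with a log2 fold change of 0.27 and an adjusted p of 0.138 without Doxo 4. Against NT the log2 fold change was 0.43 (SE 0.17, adjusted p = 0.0505, and 0.00119 to 0.231 over the alternatives).

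GART (chr21:33503931-33542892, minus strand) has 3 enzyme activities of the route, among them a formyl transfer from folate. It was 394 and 402 CPM in NT, 337, 227 and 235 CPM in Doxo, 271, 283 and 266 CPM in Doxo+Cyta, and 645, 703, 656 and 665 CPM in Doxo+Cyta+DAC. All Doxo+Cyta+DAC libraries lay above NT, and NT lay above Doxo and Doxo+Cyta, which overlapped. The fold was 2.44 against Doxo+Cyta (SE of the log2 0.12, adjusted p = 1.33e-06), 2.51 against Doxo (adjusted p = 1.57e-06) and 1.68 against NT (adjusted p = 0.000687).

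PFAS (chr17:8249278-8270491) adds an amide nitrogen to formylglycinamide ribonucleotide, between 2 of the steps of GART, and it had the largest log2 fold change of the 10 genes against Doxo+Cyta and against Doxo, while against NT that of CTPS1 was larger. PFAS stood at 43.5 and 53.4 CPM in NT, at 36.8, 10.7 and 10.7 CPM in Doxo, at 19.7, 29.0 and 20.3 CPM in Doxo+Cyta, and at 152, 146, 155 and 125 CPM in Doxo+Cyta+DAC. Doxo 4 stood far above the other Doxo libraries, and Doxo+Cyta+DAC lay above all others. PFAS was 6.28-fold higher than in Doxo+Cyta (log2 2.65, SE 0.36, adjusted p = 2.29e-05), 7.48-fold higher than in Doxo (log2 2.90, SE 0.36, adjusted p = 1.43e-05) and 2.98-fold higher than in NT (log2 1.58, SE 0.39, adjusted p = 0.00447). Against Doxo the log2 fold change was 3.76 without Doxo 4, and the call against NT was lost without NT replicate 1 (log2 1.43, adjusted p = 0.0593).

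PAICS (chr4:56435749-56461368, plus strand) adds the carboxylate and then aspartate, and it lies head to head with PPAT, 112 bases away. It stood at 362 and 359 CPM in NT, at 354, 328 and 358 CPM in Doxo, at 335, 331 and 349 CPM in Doxo+Cyta, and at 516, 547, 533 and 568 CPM in Doxo+Cyta+DAC. The first 3 groups spanned only 328 to 362 CPM, and all Doxo+Cyta+DAC libraries were higher. The fold was 1.6 against Doxo+Cyta (log2 0.68, SE 0.08, adjusted p = 7.04e-06), 1.56 against Doxo (log2 0.64, SE 0.08, adjusted p = 1.33e-05) and 1.5 against NT (log2 0.58, SE 0.09, adjusted p = 0.000165). Per kilobase, PPAT was 0.114 and 0.122 of PAICS in NT, 0.103, 0.146 and 0.133 in Doxo, 0.129, 0.0895 and 0.133 in Doxo+Cyta, and 0.105, 0.0983, 0.112 and 0.109 in Doxo+Cyta+DAC, so the Doxo+Cyta+DAC ratios lay just below those of NT and within or across the ranges of the other groups. The log2 fold changes of this divergent pair were the smallest of the 9 genes that rose, against Doxo+Cyta and against Doxo. Named pseudogene copies of PAICS and PPAT exist elsewhere in the genome. How fragments that fit several places were counted is not known, so the counts of both genes are uncertain.

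ATIC (chr2:215311956-215349773) has the last 2 activities on the way to IMP, a formyl transfer and the closing of the ring. Levels were 110 and 100 CPM in NT, 106, 78.1 and 79.5 CPM in Doxo, 96.3, 111 and 93.5 CPM in Doxo+Cyta, and 264, 222, 238 and 213 CPM in Doxo+Cyta+DAC. The first 3 groups overlapped, and Doxo+Cyta+DAC lay above them. The fold was 2.33 against Doxo+Cyta (SE of the log2 0.13, adjusted p = 2.45e-06), 2.67 against Doxo (adjusted p = 1.16e-06) and 2.23 against NT (adjusted p = 3.57e-05).

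IMPDH2 (chr3:49024329-49029442, minus strand) oxidizes IMP and sets the pace of guanine nucleotide synthesis, and it was the member that fell. It was 644 and 580 CPM in NT, 617, 749 and 720 CPM in Doxo, 780, 848 and 805 CPM in Doxo+Cyta, and 514, 571, 531 and 501 CPM in Doxo+Cyta+DAC. All 4 Doxo+Cyta+DAC libraries were below all others, and the Doxo+Cyta libraries were above all others. In Doxo+Cyta+DAC the level was 0.653 of that in Doxo+Cyta (log2 -0.62, SE 0.09, adjusted p = 5.44e-05) and 0.761 of that in Doxo (log2 -0.39, SE 0.09, adjusted p = 0.00207). Against NT the log2 fold change was -0.21 (SE 0.10, adjusted p = 0.109), and the adjusted p was 0.0139 to 0.489 over the alternatives, with a call of lower in 3 of them.

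IMPDH1, the other IMP dehydrogenase, on chromosome 7, rose in the same libraries. It was 65.2 and 66.1 CPM in NT, 62.1, 48.0 and 49.6 CPM in Doxo, 47.7, 72.0 and 59.6 CPM in Doxo+Cyta, and 105, 103, 101 and 87.8 CPM in Doxo+Cyta+DAC, and was called higher in the last group against Doxo+Cyta (log2 0.73, adjusted p = 0.000472), Doxo (log2 0.90, adjusted p = 0.0001) and NT (log2 0.59, adjusted p = 0.00722). Per kilobase, IMPDH2 was 16.0 and 14.2 times IMPDH1 in NT, 16.1, 25.3 and 23.5 times in Doxo, 26.5, 19.1 and 21.8 times in Doxo+Cyta, and 7.92, 9.0, 8.53 and 9.23 times in Doxo+Cyta+DAC, the lowest ratios of all 12 libraries. IMPDH1 has pseudogene copies, and how fragments that fit several places were counted is not known. GMPS, which makes GMP from the product of IMP dehydrogenase, had log2 fold changes of -0.14 against Doxo+Cyta (adjusted p = 0.173), -0.14 against Doxo (adjusted p = 0.178) and -0.11 against NT (adjusted p = 0.365). On the adenine branch, ADSS, which commits IMP to AMP, rose (log2 1.03, 0.94 and 0.90 against Doxo+Cyta, Doxo and NT), as did ADSL, which acts both after PAICS and after ADSS (0.67, 0.98 and 0.56).

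**Figure D3:**
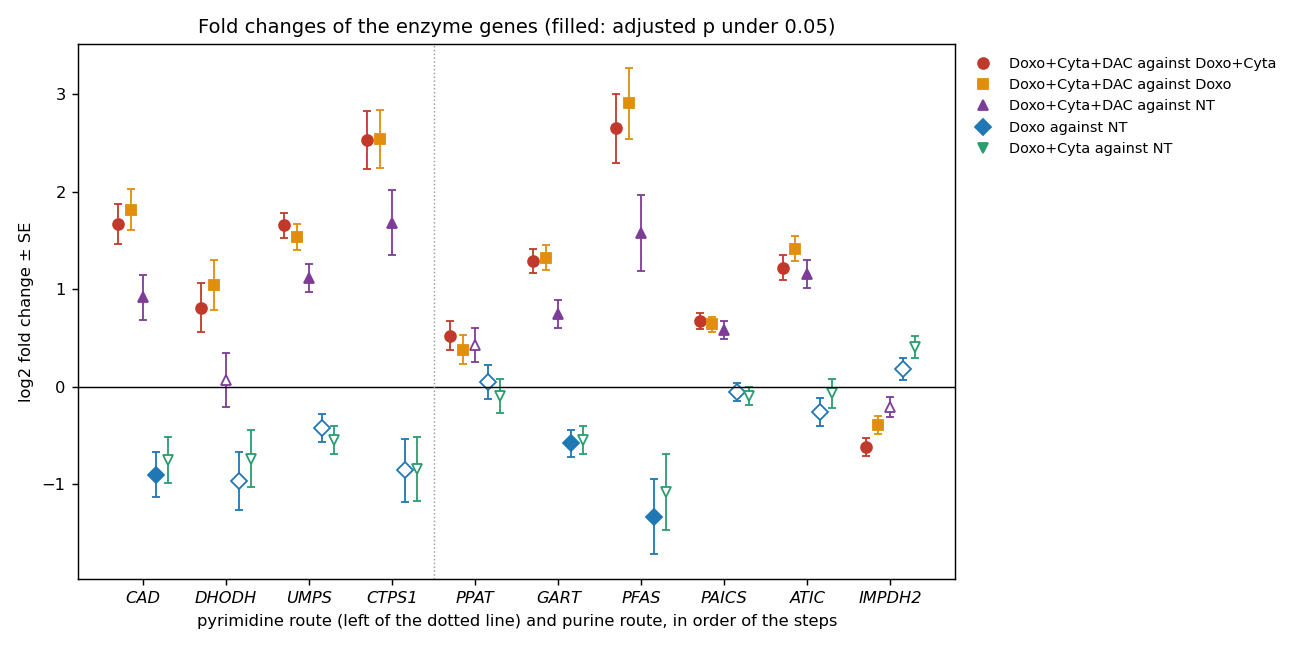
Log2 fold change (points) with its SE (bars) of each gene in 5 comparisons, in the order of the steps of each route, with filled points for an adjusted p under 0.05. The changes against Doxo+Cyta and Doxo are largest for CTPS1 and PFAS, between 0.38 and 0.68 for PPAT and PAICS, and below 0 for IMPDH2.

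Without decitabine several of the genes that rose tended to lie below NT, but fewer passed the test. PPAT and PAICS stayed close to NT, as did ATIC in Doxo+Cyta (log2 -0.07). IMPDH2 went the other way, at log2 0.18 in Doxo and 0.41 in Doxo+Cyta, neither of them called. In Doxo against NT, 3 genes were called lower, where 4.63% of tested genes were: CAD (log2 -0.90, SE 0.23, adjusted p = 0.0272), GART (log2 -0.58, SE 0.14, adjusted p = 0.0213) and PFAS (log2 -1.33, SE 0.39, adjusted p = 0.0436). None was called higher, where 6.06% of tested genes were, with 0 higher at an unadjusted p under 0.05 and 0 by DESeq2. At the stricter limits, 0 of the 10 and 1.55% of tested genes passed. Of the 10 genes 0 were called without NT 1, without NT 2, without Doxo 5 or without Doxo 6, and of all tested genes 0.151% to 1.26% were then lower. The log2 fold changes in these fits were -0.98 to -0.73 for CAD, -0.60 to -0.50 for GART and -1.47 to -1.05 for PFAS. Without Doxo 5 or without Doxo 6 all 3 of these genes were still lower at an unadjusted p under 0.05. They were picked by the fit of all libraries, which shares libraries with these fits, so this is no separate support. Without Doxo 4, 7 were called lower, where 12.2% of tested genes were. In that fit DHODH (log2 -1.44, adjusted p = 0.00197), UMPS (-0.59, adjusted p = 0.00998), CTPS1 (-1.49, adjusted p = 0.000733) and ATIC (-0.44, adjusted p = 0.0285) passed too, and PFAS reached -2.20. With all 3 Doxo libraries DHODH was at -0.97 (adjusted p = 0.0503) and CTPS1 at -0.86 (adjusted p = 0.104).

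In Doxo+Cyta against NT, 0 genes were called in either direction by edgeR's quasi-likelihood test, where 0.911% of tested genes were called higher, 0.551% lower and 0.0% at the stricter limits. At an unadjusted p under 0.05, 6 were lower and 1 higher. DESeq2 called 3 lower, where it called 2.34% of tested genes lower, and 1 higher, where it called 3.45% higher. The log2 fold changes lay between -1.08 for PFAS and 0.41 for IMPDH2, with a median of -0.54 beside 0.005 over all tested genes. Without Doxo+Cyta 20, 1 gene was called lower (UMPS, log2 -0.68, adjusted p = 0.0357), where 0.815% of tested genes were. Without both Doxo 4 and Doxo+Cyta 20, 6 were lower (CAD, DHODH, UMPS, CTPS1, GART and PFAS) and IMPDH2 was higher (log2 0.35, adjusted p = 0.017), and in Doxo against NT 7 were then lower and IMPDH2 higher (log2 0.23, adjusted p = 0.0463). Of all genes tested in that fit, 6.07% were higher and 8.40% lower in Doxo+Cyta against NT, and 18.2% and 19.2% in Doxo against NT. PAICS and PPAT were not called in any of these fits, and their log2 fold changes against NT lay between -0.14 and 0.14 in all but the fits of Doxo+Cyta with PPAT, where the range was -0.23 to 0.06.

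In Doxo+Cyta against Doxo, 0 genes were called by the same test (1.07% of tested genes were higher, 2.32% lower and 0.374% passed the stricter limits), with 1 higher and 0 lower at an unadjusted p under 0.05 and 0 by DESeq2. The log2 fold changes ran from -0.14 for PPAT to 0.25 for PFAS. Without Doxo 4, CAD (log2 0.56, adjusted p = 0.0263) and PFAS (log2 1.11, adjusted p = 0.00728) were called higher in Doxo+Cyta, where 3.0% of tested genes were. A p over the threshold does not show that the groups are alike, since the spread of the Doxo libraries was wide (coefficient of variation 77.5% for PFAS, 59.5% for CTPS1 and 47.0% for DHODH).

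Per kilobase of exon, IMPDH2 was the most abundant transcript in all 4 groups, at 362 ± 26.7 (SD, n = 2) CPM per kb in NT, 411 ± 41.3 (n = 3) in Doxo, 480 ± 20.4 (n = 3) in Doxo+Cyta and 313 ± 17.9 (n = 4) in Doxo+Cyta+DAC. PAICS, GART and ATIC followed in that order, at 102 ± 0.734, 89.9 ± 1.16 and 50.4 ± 3.28 CPM per kb in NT and at 154 ± 6.26, 151 ± 5.63 and 112 ± 10.7 CPM per kb in Doxo+Cyta+DAC, where the libraries of PAICS and GART overlapped. In NT the order went on with CAD (22.4), CTPS1 (18.6), PPAT (12.1), PFAS (9.0), DHODH (6.93) and UMPS (6.57), of which the last pair overlapped. In Doxo+Cyta+DAC it was CTPS1 (59.7), CAD (42.2), PFAS (26.8), PPAT (16.3), UMPS (14.2) and DHODH (7.30), with no overlap between neighbours. CTPS1 and PFAS had thus moved ahead of CAD and PPAT. In Doxo, PPAT (12.5), CAD (12) and CTPS1 (10.3) overlapped, as did UMPS (4.91), PFAS (3.6) and DHODH (3.57), and in Doxo+Cyta CAD (13.3), PPAT (11.3) and CTPS1 (10.4) did too, with UMPS (4.51), PFAS (4.27) and DHODH (4.17) below them. The reads were aligned without spliced alignment, so fragments across exon borders may have been lost. Such a loss may differ between genes, as CAD has 44 exon blocks in 7114 bases and UMPS 7 in 6836. The order of genes within a group, and the size of ratios between genes, are therefore uncertain. GART was scaled by the exon length of its main copy, 4426 bases. With the deposited length of 5547 bases, which adds a copy on an alternate contig, GART was at 71.7 CPM per kb in NT and 120 in Doxo+Cyta+DAC, and its libraries then overlapped with those of ATIC in Doxo (48.0 and 42.1) and Doxo+Cyta (49.2 and 48.1).

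**Figure D4:**
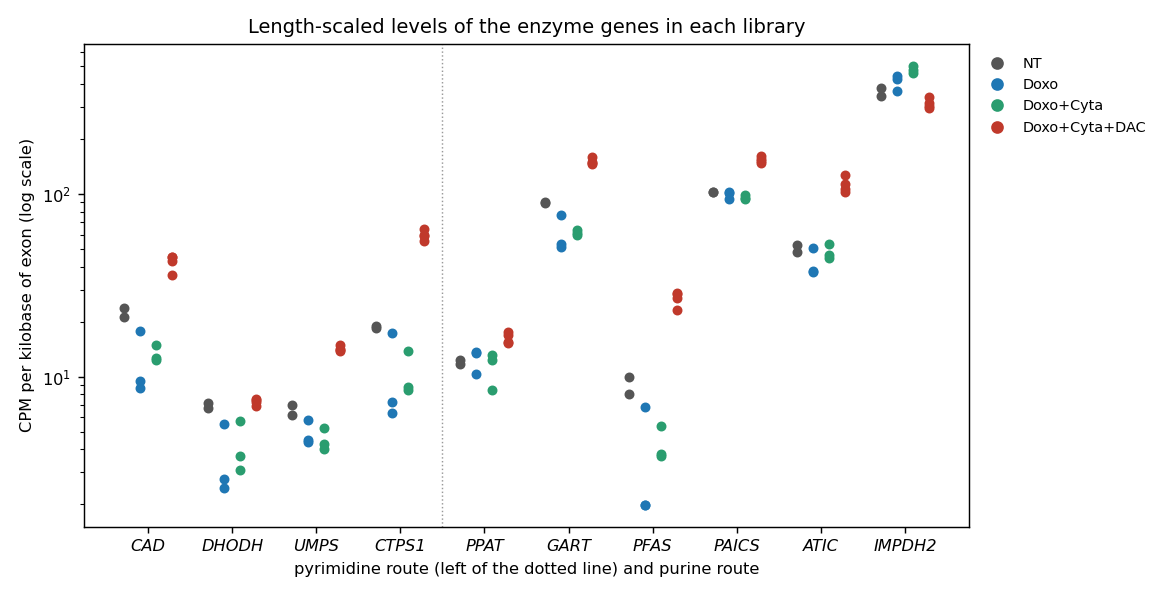
CPM per kilobase of exon (log axis) of each gene in the 12 libraries, with points for libraries coloured by group. IMPDH2 is highest in each group, and the spread from IMPDH2 to the lowest gene is smaller in Doxo+Cyta+DAC (313 to 7.30) than in Doxo+Cyta (480 to 4.17).

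The other genes of nucleotide metabolism were read from 6 lists of 70 genes, of which 62 were tested. Against Doxo+Cyta, 40 of the 62 were higher and 8 lower in Doxo+Cyta+DAC, against Doxo 39 and 9, and against NT 33 and 7, beside the shares of all tested genes given above. Without Doxo 4 and Doxo+Cyta 20, 41 were higher and 10 lower, 42 and 11, and 41 and 7. The median log2 fold changes with all libraries were 0.56, 0.48 and 0.47. In Doxo against NT, 1 of the 62 was called, and it was lower.

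Among the other enzymes of the purine route, 6 of 8 tested genes were higher in each of the 3 comparisons and the others were not called. PRPS1 and PRPS2, which make PRPP, rose against Doxo+Cyta (log2 0.84, adjusted p = 6.12e-06, and 0.82, adjusted p = 1.86e-05). Among the other pyrimidine enzymes, 4 of 7 were higher and 1, CTPS2, lower against Doxo+Cyta and against Doxo. CMPK2, a mitochondrial UMP and CMP kinase, rose (log2 1.37, adjusted p = 4.32e-06 against Doxo+Cyta), as did the nucleoside diphosphate kinases NME1 (log2 2.01) and NME2 (log2 1.16), whose exons are shared with the NME1-NME2 read-through gene, so that many of their fragments had been left out and their levels are uncertain.

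The deoxynucleotide list had 7 of 8 genes higher against Doxo+Cyta and against Doxo, and 6 of 8 against NT, and the others were not called. DCTPP1, which clears modified dCTP, rose by 1.48, 1.73 and 1.40 (log2, against Doxo+Cyta, Doxo and NT). DTYMK, which phosphorylates dTMP, rose by 0.97, 1.25 and 0.93.

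Folate and serine enzymes supply the formyl groups used by GART and ATIC, and 12 of these 14 genes were higher against Doxo+Cyta and against Doxo, and 10 against NT, with 1 lower each time. SLC19A1, the reduced folate carrier, was at 35.5 and 43.7 CPM in NT, at 39.1, 10.1 and 12.8 CPM in Doxo, at 19.0, 34.2 and 17.1 CPM in Doxo+Cyta, and at 204, 202, 202 and 156 CPM in Doxo+Cyta+DAC. Doxo 4 and Doxo+Cyta 20 were again the highest of their groups. Its log2 fold change was 3.03 against Doxo+Cyta (SE 0.39, adjusted p = 1.77e-05), 3.22 against Doxo (adjusted p = 1.39e-05) and 2.27 against NT (adjusted p = 0.000899). It was 4.07 against Doxo without Doxo 4 and 3.40 against Doxo+Cyta without Doxo+Cyta 20. MTHFD1L, the mitochondrial formate producer, rose by 1.46 and 1.59 against Doxo+Cyta and Doxo. PSAT1 of serine synthesis rose by 1.75, 1.49 and 1.45 against Doxo+Cyta, Doxo and NT. PSPH of the same route rose by 1.37 against NT, with means of 15.8 CPM in Doxo+Cyta+DAC, 6.12 in NT, 5.73 in Doxo and 5.88 in Doxo+Cyta.

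Salvage genes were mixed, with 7 of 12 tested higher and 2 lower against Doxo+Cyta, 6 and 2 against Doxo, and 5 and 2 against NT. UCK2, which phosphorylates uridine and cytidine, rose (log2 0.87 against Doxo+Cyta and 0.80 against NT), while DCK, the kinase that activates deoxycytidine and its analogues cytarabine and decitabine, fell in all 3 comparisons (log2 -0.75, adjusted p = 0.000873, -1.11, adjusted p = 3.96e-05, and -0.80, adjusted p = 0.00186). TK2, the mitochondrial thymidine kinase, fell in all 3 too (log2 -1.27, -0.98 and -0.87), and TK1, the thymidine kinase of the cytosol, rose against Doxo (log2 1.04). Of the breakdown list 4 of 13 tested genes were higher and 4 lower against Doxo+Cyta, 4 and 5 against Doxo, and 3 and 3 against NT. Of all tested genes 29.8% were higher and 30.5% lower against Doxo+Cyta, 29.1% and 30.4% against Doxo, and 24.9% and 23.7% against NT. The breakdown list as a whole thus lay near these shares. NT5M, a mitochondrial deoxynucleotidase, fell by 1.84, 1.49 and 1.77, and SAMHD1, which breaks down deoxynucleoside triphosphates, rose by 1.75, 1.53 and 1.08. SAMHD1 shares some exon bases with TLDC2, and counts were made without strand. NT5E, a nucleotidase of the cell surface, fell by 1.73 against Doxo+Cyta, but rested on 3 to 8 counts per Doxo+Cyta+DAC library and 13 to 22 per Doxo+Cyta library, at or little above the limit of 3 counts in the former. ADA, adenosine deaminase, fell by 0.85 against NT. Its mean was 18.3 CPM in Doxo+Cyta+DAC, 33.0 in NT, 25.2 in Doxo and 37.6 in Doxo+Cyta, so the lower level was not limited to the comparison with NT.

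**Figure D5:**
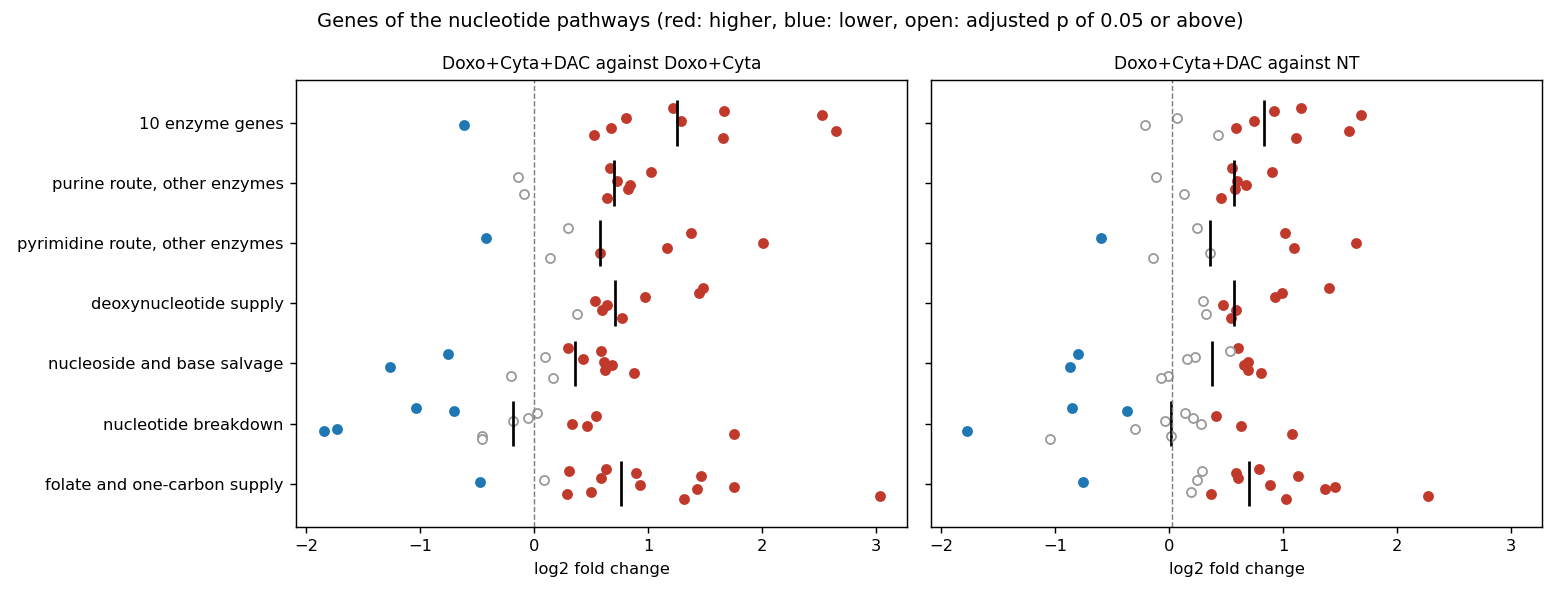
Log2 fold change of each tested gene of the nucleotide lists (points, horizontal axis) in Doxo+Cyta+DAC against Doxo+Cyta (left) and NT (right), red for higher and blue for lower at an adjusted p under 0.05 and open for the rest, with black lines for list medians and a dashed line for the median of all tested genes. The 10 enzyme genes have medians of 1.26 and 0.83, and the breakdown list has medians of -0.18 and 0.02.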

How the data were processed

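RNA-sequencing counts of 12 HEL libraries were used, and groups were taken from the sample labels. The deposited values are raw counts of read pairs per gene. The authors trimmed and filtered the reads, aligned them to GRCh38 with Bowtie2 2.2.8 (an aligner without spliced alignment) and counted exonic fragments with featureCounts 1.6.0 without regard to strand. Per the file header, pairs split between chromosomes were not counted, and with the default settings neither were fragments shared by more than 1 gene. Fragments marked as multi-mapping are also left out by default, but whether the aligned reads carried such marks is not known. Of 26485 genes, 4 lacked a count, 26481 were kept and 14164 passed filterByExpr and were tested. No 2 libraries of a group were duplicates.

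The test was the quasi-likelihood test of edgeR 4.0.16 (R 4.3.3), two-sided, from 1 fit of all 12 libraries with TMM scaling. Benjamini-Hochberg adjustment ran over all 14164 genes, separately for the 6 comparisons. An adjusted p under 0.05 was a call. Each SE was derived from the log2 fold change and the square root of its F value. The labels speak of biological replicates within an experiment and not of separate experiments, so p-values measure only the spread between these libraries. Levels per kilobase used exon lengths on the primary chromosomes in place of the deposited lengths, which differ for GART. The alternatives were DESeq2 1.42.0, RLE and upper-quartile scaling, no filter and at least 10 counts in every sample, only the groups compared, an adjusted p under 0.01 with more than a 2-fold change, raw library totals for the levels, and leaving out each replicate in turn. Total counts of 12763582 to 19106235 per library set the precision, and the limit of 3 counts covers counting error only. The fits were also run on simulated counts with the same spread for every gene and no library that stands apart. That run therefore says nothing about the effect of such libraries. Python 3.11.15 was used for summaries and matplotlib 3.10.9 for the figures.

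The enzyme genes, the 6 lists and the tests were chosen with earlier results of these data known. Named were the 10 enzyme genes, IMPDH1, CTPS2, GMPS, ADSL and ADSS, and from each list and comparison with Doxo+Cyta+DAC up to 3 genes with the largest absolute log2 fold change among those called. Some genes that this rule names are not reported here. SLC19A1 was shown by library as the largest change of the lists.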

Additional observations from a re-analysis of the deposited data

How the results depend on the processing

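No paired analysis was possible because the groups share no replicate numbers. No called value changed direction. At the stricter limits (adjusted p under 0.01, more than 2-fold) 6 enzyme genes were called in Doxo+Cyta+DAC against Doxo+Cyta, in place of 10. Against NT 4 were, in place of 7, and in Doxo against NT 0, in place of 3. Of the 62 other tested genes 16, 17 and 11 passed against Doxo+Cyta, Doxo and NT, in place of 48, 48 and 40. Of all tested genes 23.3%, 21.6% and 16.2% passed in these 3 comparisons, and 1.55% in Doxo against NT. The counts of the 62 other genes thus lay little above the shares of all tested genes. In Doxo against NT the count of 3 became 5 with no filter on low counts and 0 with only the groups compared. Of all genes tested in these fits 4.42% and 4.85% were lower. In Doxo+Cyta against NT the count of 0 became 4 with DESeq2 and 2 with no filter. DESeq2 called 3.45% of tested genes higher and 2.34% lower there, and the fit with no filter 0.905% and 0.855%. The main fit called 0.911% and 0.551%. Leaving out both Doxo replicate 4 and Doxo+Cyta replicate 20, a choice made after seeing the data, gave 8 in Doxo against NT and 7 in Doxo+Cyta against NT. It gave 2 in Doxo+Cyta against Doxo (3.79% of all genes tested in that fit higher, 5.17% lower). In Doxo+Cyta+DAC it gave 10, 10 and 9 against Doxo+Cyta, Doxo and NT. The cause was not tested.

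Leaving out single replicates gave 9 to 10 called enzyme genes in Doxo+Cyta+DAC against Doxo+Cyta, 9 to 10 against Doxo, 5 to 7 against NT (5 without NT replicate 1), 0 to 7 in Doxo against NT (7 without Doxo replicate 4 and 0 without NT 1, NT 2, Doxo 5 or Doxo 6), 0 to 1 in Doxo+Cyta against NT (1 without Doxo+Cyta replicate 20) and 0 to 2 in Doxo+Cyta against Doxo (2 without Doxo replicate 4). For the other genes the ranges were 39 to 50, 45 to 47 and 30 to 41. Without an NT replicate the remaining NT library was assumed to vary like the other groups. Of the single log2 fold changes under the alternatives, 138 of 140 in Doxo+Cyta+DAC against Doxo+Cyta kept direction and call, as did 134 of 140 against Doxo and 121 of 130 against NT. Uncalled values changed sign 14 times in Doxo+Cyta against Doxo, 3 times in Doxo against NT (PPAT), 2 times in Doxo+Cyta against NT (PPAT) and 1 time in Doxo+Cyta+DAC against NT (DHODH). With raw library totals, the NT means of DHODH (17.9 CPM), CTPS1 (68.5), PPAT (47.6), GART (423) and PAICS (383) moved by more than 1 SD, and the other 35 of 40 means did not. With upper-quartile scaling 205 genes were higher and 249 lower in Doxo+Cyta against Doxo, in place of 152 and 329. With 2 NT libraries, small differences from NT were not detectable.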

Other observations

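Within a library, CTPS1 per kilobase was 0.0482 and 0.0550 of IMPDH2 in NT, 0.0477, 0.0142 and 0.0170 in Doxo, 0.0182, 0.0278 and 0.0185 in Doxo+Cyta, and 0.195, 0.177, 0.206 and 0.186 in Doxo+Cyta+DAC. A ratio of this kind does not depend on the scaling of the libraries. The transcripts of these genes of the steps to cytosine and to guanine nucleotides stood in a different proportion in Doxo+Cyta+DAC. There all 4 ratios were above all others, and Doxo 4 lay with the NT libraries. The ratio leaves out CTPS2, which was lower there, and IMPDH1, which was higher, and amounts of enzyme were not measured.

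PFAS per kilobase was 0.0785 and 0.0973 of PAICS in NT, 0.0679, 0.0213 and 0.0196 in Doxo, 0.0385, 0.0571 and 0.0381 in Doxo+Cyta, and 0.192, 0.174, 0.190 and 0.144 in Doxo+Cyta+DAC. These enzymes act in neighbouring parts of the same route, and PAICS varied far less than PFAS between the Doxo libraries (coefficient of variation 4.70% against 77.5%).

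In the Doxo+Cyta+DAC group of 4 libraries, no enzyme gene had a library far from the others of the group by Dixon's test.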
